A study of Mus musculus with 16 samples.

Results

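Messenger RNA of 10 genes of purinergic signalling was followed in bone marrow-derived macrophages (BMDMs) exposed to tumor conditioned media. They were selected by symbol, and comprise the adenosine receptor genes Adora2a and Adora2b, the P2Y receptor genes P2ry2, P2ry6, P2ry12, P2ry13 and P2ry14, the P2X receptor genes P2rx4 and P2rx7, and the ectonucleotidase gene Entpd1. They are 10 of the 55487 genes in the count table, each was matched by its Ensembl identifier, and all 10 were among the 12372 genes above 1 CPM, the count scaled to library size, in at least 2 of the 16 samples. BMDMs were grown from bone marrow of WT Balb/c mice of 8 weeks. The conditioned media (CM) were collected from 4T1 cells, an established mouse mammary tumor line, and carry what these cells secrete. Ruxolitinib (Rux) blocks JAK1 and JAK2, which signal to STAT proteins, and IKK-16 blocks the IKK complex upstream of NF-κB.

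The groups were DMEM, the plain medium (2 samples), DMEM + Rux (3), CM (3), CM + Rux with 0.5 μM ruxolitinib and a label of 4 h (3), CM + Rux with a label of 2 h (2), and CM + Rux + IKK-16 with the same dose of ruxolitinib and IKK-16 at 0.8 μM (3). The ruxolitinib dose in DMEM + Rux is not given in the labels, and what the 2 h refers to is not stated. By the study's methods, cells were starved of serum for 2 h before CM, with ruxolitinib already present in this pre-treatment. Treatment for RNA lasted 4 h by these methods, while the labels of CM, DMEM, DMEM + Rux and CM + Rux + IKK-16 give no time. The labels do not say whether replicates came from separate mice or cultures, so p-values measure the spread between these samples, which may be technical. Gene counts summed to 18449388 in the shallowest and 46215853 in the deepest sample. All 8 macrophage markers were detected in every group, with summed levels of 40111 to 57129 CPM. Summed markers of T and NK cells, B cells and mast cells stayed at or below 0.407 CPM in every sample. Epithelial markers, which 4T1 cells could supply, summed to 0.732 to 1.45 CPM in CM and at most 0.118 CPM in DMEM. The largest part in CM was Cdh1 (mean of 0.618 CPM), beside Krt18 (0.2), Krt8 (0.199) and Epcam (0.042). Cdh1 was at 0 in the 2 h group and had a mean of 0.0411 CPM in CM + Rux, where Krt18 had 0.183 and 0.273 CPM. Neutrophil markers summed to 1.72 to 3.15 CPM in CM and 0.236 to 0.286 CPM in DMEM. Most of this was S100a8 (means of 1.9 and 0.246 CPM), and Ly6g was at 0 in every group. Platelet and megakaryocyte markers summed to 54.1 to 89.2 CPM in CM and 7.35 to 8.87 CPM in DMEM. Most of this was Pf4 (means of 63.7 and 7.14 CPM). Ppbp (3.95 and 0.311 CPM) and Itga2b (1.25 and 0.659 CPM) also had higher means in CM, and Gp9 was at 0 in both groups. Dendritic cell markers summed to 4.11 to 6.59 CPM in CM, 1.06 to 2.16 CPM in DMEM and 13 to 16.8 CPM in the 2 h group. Most of this was Zbtb46 (means of 1.45, 1.25 and 10.1 CPM) and Ccr7 (3.58, 0.324 and 4.77 CPM). Flt3 was at 0 in DMEM and in the 2 h group. Fibroblast markers ranged from 3.32 to 10.5 CPM over all samples. The part of other cells in the values below was not tested.

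Cells that are stressed or dying release ATP, UTP and other nucleotides, which act on neighbouring cells through ATP-gated cation channels of the P2X family and G protein-coupled receptors of the P2Y family. Ectonucleotidases at the cell surface remove the phosphates step by step, and the adenosine that remains acts on its own receptors. In macrophages, nucleotide receptors are known for chemotaxis, phagocytosis and inflammasome activation, whereas adenosine receptors that raise cyclic AMP are known for restraining inflammatory cytokine release and promoting angiogenic factors.

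Promoter sequences are shown for the 4 genes with the largest changes in CM among those with a window, of which Adora2b and P2ry2 were higher and P2ry12 and P2ry13 lower. The RefSeq windows of the GRCm38.p6 build run from 250 bases before to 50 bases after an annotated transcription start, and 8 of the 10 genes had at least 1 window, giving 14 windows. Adora2a and P2ry6 had none. The windows were searched on both strands for 8 letter strings, namely TTCNNNGAA (the GAS element of STAT proteins), GGG and TTTCC set 2 bases apart (NF-κB), TGACGTCA (the cyclic AMP response element), ACGTG (the hypoxia response core), TGANTCA (AP-1), TTGCNNAA (C/EBP), GAAA repeated after a gap of 2 bases (interferon regulatory factors) and GGGCGG (the GC box). Capitals mark every match, 5′ to 3′ on the strand of the gene. The windows are those of Adora2b (chr11:62248734-62249033, plus strand), the first listed RefSeq start of P2ry2 (chr7:101012004-101012303, minus strand), P2ry12 (chr3:59262936-59263235, minus strand) and P2ry13 (chr3:59210833-59211132, minus strand). For P2ry2 and P2ry12 these starts differ from the Ensembl bounds used for counting. The P2ry12 window lies wholly outside its bounds, which end at 59262871, and the P2ry2 window lies inside its bounds, which end at 101012866.
Adora2b: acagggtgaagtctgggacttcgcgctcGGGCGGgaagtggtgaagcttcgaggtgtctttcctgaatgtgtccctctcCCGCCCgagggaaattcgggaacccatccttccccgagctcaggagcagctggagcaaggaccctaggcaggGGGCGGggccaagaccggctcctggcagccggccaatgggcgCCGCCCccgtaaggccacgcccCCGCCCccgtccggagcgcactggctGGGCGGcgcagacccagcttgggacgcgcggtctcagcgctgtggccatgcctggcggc
P2ry2: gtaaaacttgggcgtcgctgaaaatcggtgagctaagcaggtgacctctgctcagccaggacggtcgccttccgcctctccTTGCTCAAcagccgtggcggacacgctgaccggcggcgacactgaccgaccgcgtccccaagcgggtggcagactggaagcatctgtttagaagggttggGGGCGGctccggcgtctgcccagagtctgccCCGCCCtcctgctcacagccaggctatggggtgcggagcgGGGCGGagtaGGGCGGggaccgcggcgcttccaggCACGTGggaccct
P2ry12: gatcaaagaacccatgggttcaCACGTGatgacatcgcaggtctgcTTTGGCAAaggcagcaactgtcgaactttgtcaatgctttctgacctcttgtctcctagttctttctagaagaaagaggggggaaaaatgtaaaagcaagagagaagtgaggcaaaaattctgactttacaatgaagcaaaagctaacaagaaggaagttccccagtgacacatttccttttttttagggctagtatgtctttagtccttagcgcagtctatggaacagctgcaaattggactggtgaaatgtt
P2ry13: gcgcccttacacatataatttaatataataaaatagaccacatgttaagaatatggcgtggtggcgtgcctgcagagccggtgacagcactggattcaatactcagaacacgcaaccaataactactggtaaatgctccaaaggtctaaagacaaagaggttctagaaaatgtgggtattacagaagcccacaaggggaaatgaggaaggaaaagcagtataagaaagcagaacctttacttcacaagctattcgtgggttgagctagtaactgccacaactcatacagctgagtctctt

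The Adora2b window held 6 GC boxes and no other match. The P2ry2 window held 4 GC boxes, 1 C/EBP string and the palindrome CACGTG, which reads ACGTG on both strands. The P2ry12 window also held CACGTG and 1 C/EBP string, but no GC box, and the P2ry13 window held none of the 8 strings. Among the other windows, P2rx7 had an AP-1 string and 2 GC boxes at one start, P2rx4 had 1 GC box, P2ry14 had an AP-1 string at each of 2 starts and 2 C/EBP strings at another, and Entpd1 had no match at either of its 2 starts. No GAS, NF-κB, cyclic AMP response or interferon regulatory factor string lay in any of the 14 windows. Of 32851 promoter windows of the same length, 35.7% held GGGCGG, 19.6% ACGTG, 10.8% TTGCNNAA, 8.3% TTCNNNGAA, 7.81% TGANTCA, 1.79% TGACGTCA, 3.44% the interferon regulatory factor string and 1.63% the NF-κB string. A match describes letters in the window, not a site in use.

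In CM against DMEM, the adenosine receptor genes Adora2a and Adora2b, the P2Y receptor genes P2ry2 and P2ry6, and Entpd1 were higher. The P2X channel genes P2rx4 and P2rx7 and the ADP receptor genes P2ry12 and P2ry13 were lower. A gene was called at an adjusted p under 0.05 (quasi-likelihood test of edgeR, Benjamini-Hochberg over all genes tested) with a log2 fold change beyond 0.5. By this rule 9 of the 10 genes were called, 5 higher and 4 lower, where 45% of all genes tested were called, 20.9% higher and 24.1% lower. Their median log2 fold change was 0.30, beside 0.00 over all genes. The scaling used (relative log expression, RLE) moved the median of all genes up by 0.30 on the log2 scale, compared with total counts alone, and every called change was larger than this shift. TMM scaling left all 9 calls in place. Because these are bulk samples, fewer cells that carry a transcript and less of it per cell cannot be told apart.

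**Figure D1:**
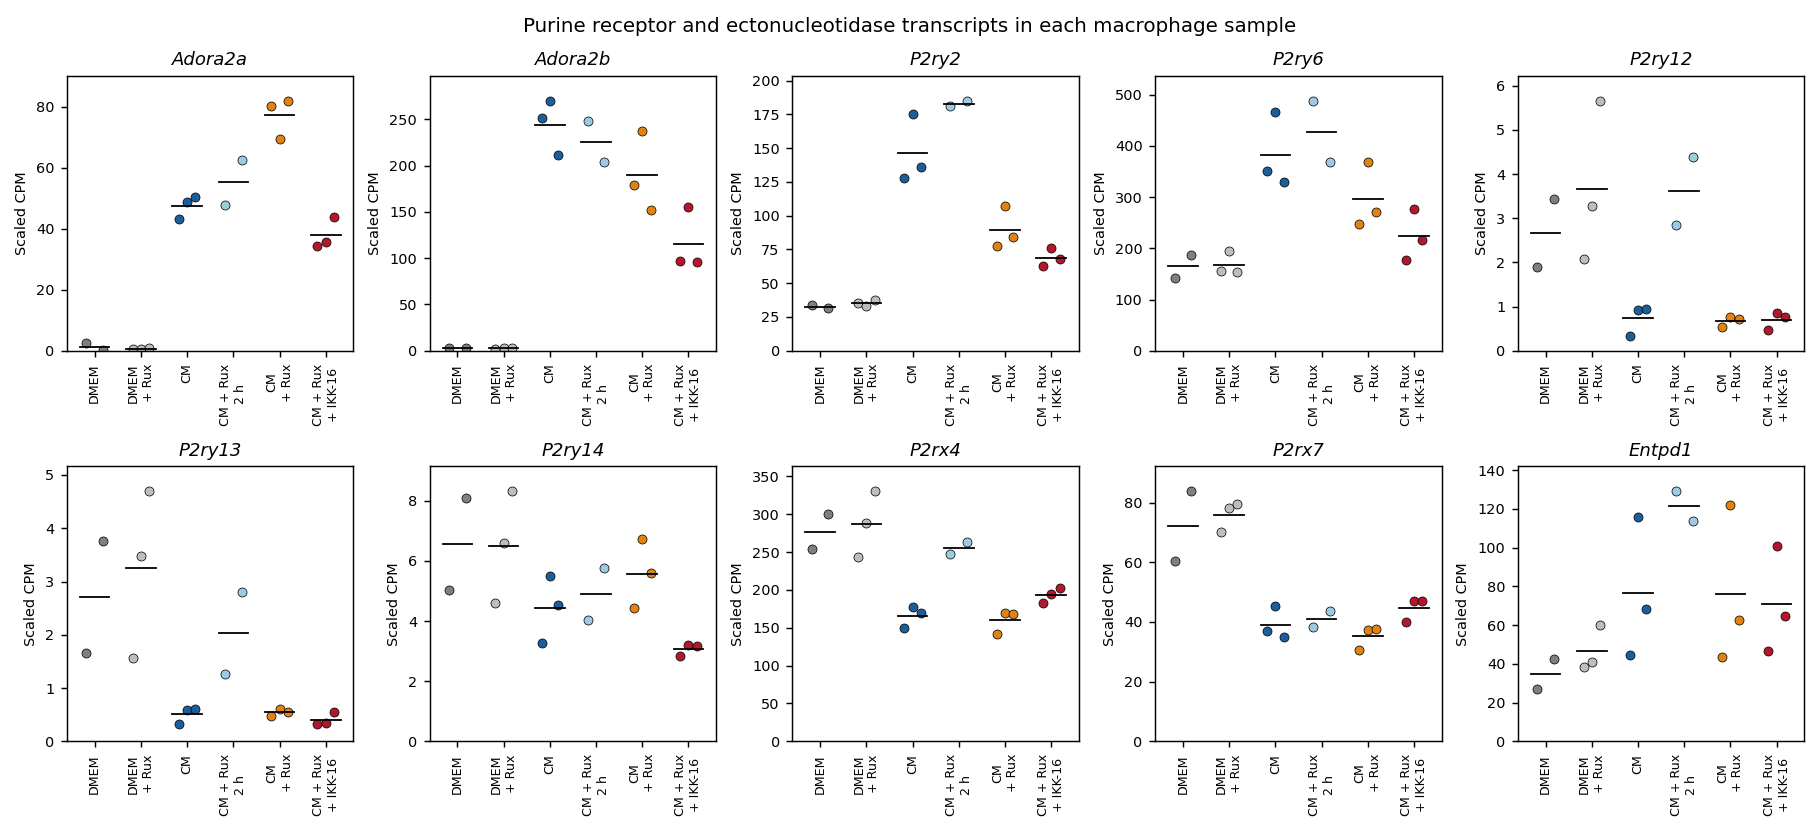
RLE-scaled CPM (linear vertical axes from 0) of each gene in every sample of the 6 groups; points are samples and bars are group means. Adora2a and Adora2b sit at or below 2.90 CPM in all 5 samples without CM, while P2ry12 and P2ry13 are lowest in the 3 groups with CM that carry no 2 h label.

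Adora2b (ENSMUSG00000018500, GRCm38 chr11:62248984-62266453, plus strand) encodes the low-affinity adenosine receptor that couples to the stimulatory G protein. It had 2.66 and 2.74 CPM in DMEM and 251, 270 and 212 CPM in CM. Every CM sample thus stood far above both DMEM samples, and the means were 2.70 ± 0.0581 (SD, n = 2) and 244 ± 29.8 CPM (SD, n = 3). The log2 fold change of 6.50 (SE 0.30, adjusted p = 1.9e-09), or 90.5-fold, was the largest among the 10 genes. It ranged from 6.42 to 6.60 over the alternative settings.

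Adora2a (ENSMUSG00000020178, chr10:75316877-75334784, plus strand) encodes the high-affinity receptor of the same kind. It had 2.39 and 0.327 CPM in DMEM and 43.1, 48.7 and 50.5 CPM in CM. The CM samples lay close together, whereas the DMEM samples rested on 81 and 8 counts. The log2 fold change was 5.01 (SE 0.39, adjusted p = 1.6e-07), or 32.2-fold. It was called at 7.16 without DMEM replicate 1 and at 4.31 without DMEM replicate 2. In each group with CM, Adora2b exceeded Adora2a per kilobase of exon, by 6.97 to 9.67 times in the CM samples.

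P2ry2 (ENSMUSG00000032860, chr7:100996568-101012866, minus strand) encodes a receptor for ATP and UTP. Its levels were 33.5 and 31.8 CPM in DMEM and 128, 175 and 136 CPM in CM, with no overlap. This gave a log2 fold change of 2.17 (SE 0.15, adjusted p = 6.6e-08), or 4.50-fold. P2ry6 (ENSMUSG00000048779, chr7:100937630-100974649, minus strand), whose product responds to UDP, rose from 142 and 187 CPM to 351, 467 and 330 CPM, a log2 fold change of 1.22 (SE 0.23, adjusted p = 0.00042). The lowest CM sample was again above the highest DMEM sample. These 2 genes are neighbours on chromosome 7, 21918 bases apart with no protein-coding gene between them.

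P2ry12 and P2ry13 encode receptors for ADP, and P2ry12 is best known from microglia and platelets. P2ry12 (ENSMUSG00000036353, chr3:59216272-59262871, minus strand) had 1.89 and 3.43 CPM in DMEM and 0.334, 0.920 and 0.936 CPM in CM. P2ry13 (ENSMUSG00000036362, chr3:59207892-59210882, minus strand) had 1.65 and 3.76 CPM in DMEM and 0.334, 0.594 and 0.610 CPM in CM. For both genes every CM sample was below both DMEM samples, at 6 to 31 counts per CM sample for P2ry12 and 6 to 20 for P2ry13. The log2 fold changes were -1.78 for P2ry12 (SE 0.46, adjusted p = 0.0041) and -2.33 for P2ry13 (SE 0.50, adjusted p = 0.0011). Without DMEM replicate 2 the value for P2ry12 was -1.30 and the call was lost (adjusted p = 0.063), while P2ry13 was called at -1.64 (adjusted p = 0.028). P2ry14 (ENSMUSG00000036381, chr3:59113855-59153618, minus strand), whose product binds UDP-glucose, had 5.02 and 8.10 CPM in DMEM and 3.28, 5.49 and 4.52 CPM in CM. Here the groups overlapped, and the log2 fold change of -0.54 (SE 0.28) was not called (adjusted p = 0.11). Its 95% interval was -1.09 to 0.02. P2ry13 and P2ry12 lie 5389 bases apart and all 3 of these genes lie within Med12l, which is on the opposite strand, and counting used the strand.

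The P2X channels open on ATP, and P2rx7 needs high ATP and is a known trigger of the inflammasome. P2rx4 (ENSMUSG00000029470, chr5:122707544-122729738, plus strand) had 254 and 300 CPM in DMEM and 150, 177 and 170 CPM in CM. P2rx7 (ENSMUSG00000029468, chr5:122643911-122691432, plus strand) had 60.4 and 83.7 CPM in DMEM and 36.8, 45.2 and 35.1 CPM in CM. Neither gene overlapped between the groups. The log2 fold changes were -0.74 (SE 0.12, adjusted p = 0.00013) for P2rx4 and -0.88 (SE 0.14, adjusted p = 0.00013) for P2rx7. The pair is separated by 16111 bases on chromosome 5, again with no protein-coding gene between.

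Entpd1 (ENSMUSG00000048120, chr19:40612366-40741602, plus strand) encodes CD39, which converts extracellular ATP and ADP to AMP. Levels were 27.1 and 42.4 CPM in DMEM and 44.6, 116 and 68.4 CPM in CM. CM replicate 1 stood just above the higher DMEM sample, and the spread within CM was wide (76.2 ± 36.2 CPM, SD, n = 3). The log2 fold change of 1.14 (SE 0.46) was narrowly called (adjusted p = 0.045). The call was lost without CM replicate 2 (0.71), CM replicate 3 (1.22), DMEM replicate 1 (0.85) or DMEM replicate 2 (1.5). In each of CM, CM + Rux and CM + Rux + IKK-16 the sample numbered 2 was the highest for Entpd1. The same held for P2ry2, P2ry6, P2ry14 and Adora2b, but not in all of these groups for the other genes. The gene encloses same-strand pseudogenes, and fragments that overlap more than 1 gene were not counted.

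**Figure D2:**
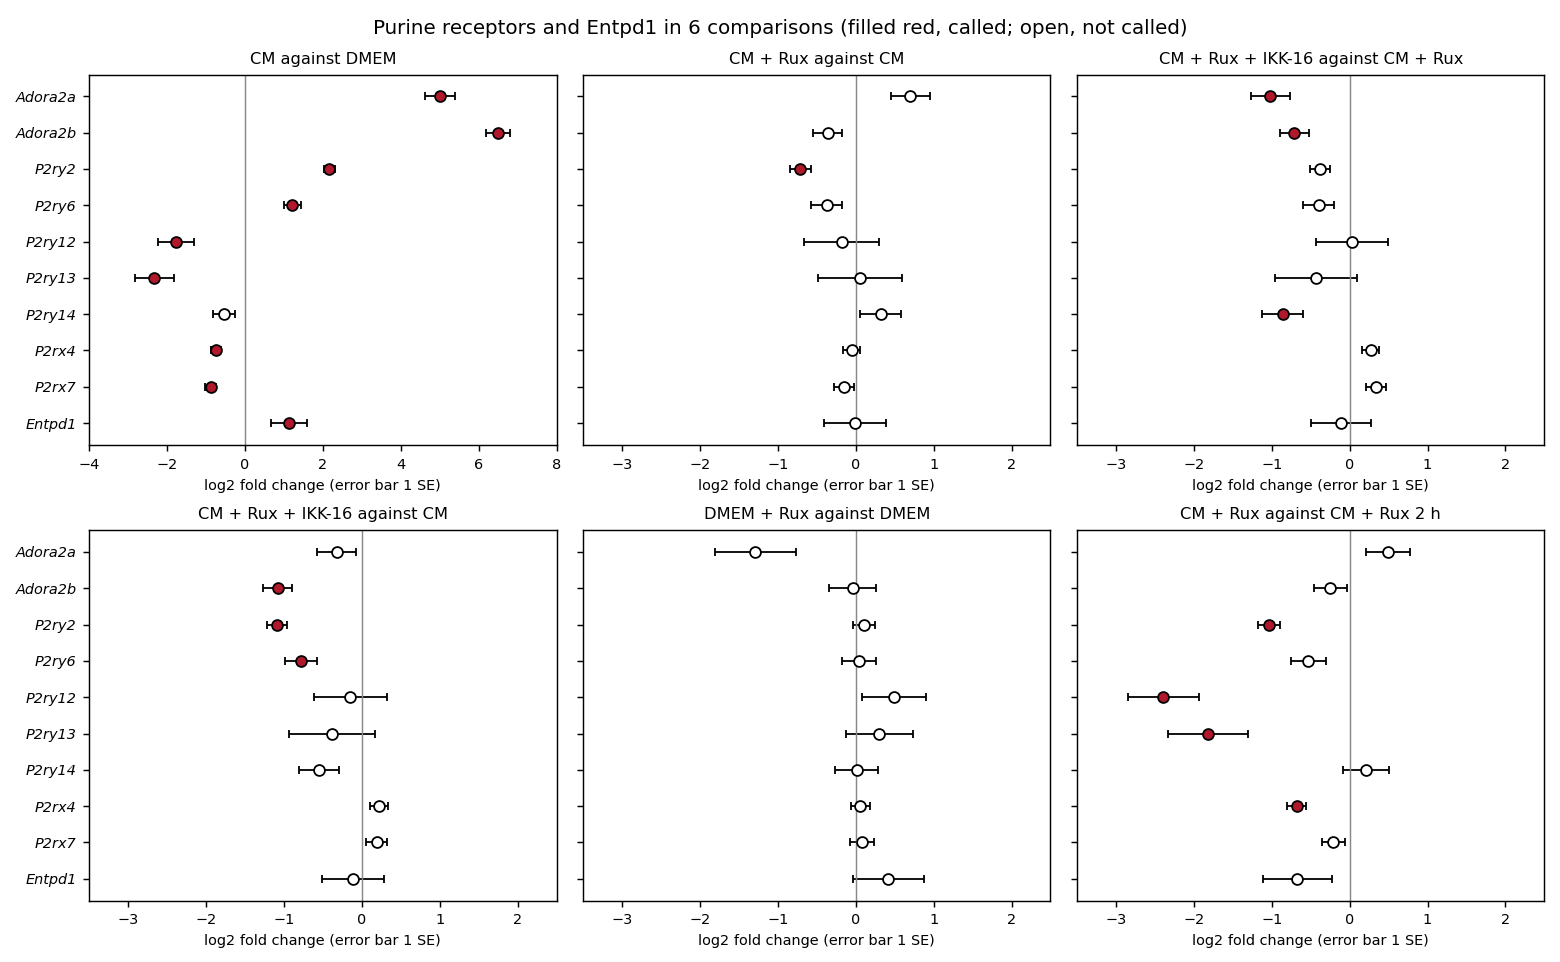
Log2 fold change (horizontal axis, error bar 1 SE) of each gene in 6 comparisons, with filled red points for called genes; the CM against DMEM panel has a wider axis. Changes in CM against DMEM span -2.33 to 6.50, while those in CM + Rux against CM span -0.71 to 0.70.

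Levels per kilobase of exon (scaled CPM per kb) allow the genes to be ordered. DMEM samples were led by P2ry6 at 56.9 ± 11 (SD, n = 2), P2rx4 at 39.4 ± 4.6, P2rx7 at 12.1 ± 2.76, P2ry2 at 8.31 ± 0.308 and Entpd1 at 6.23 ± 1.94, with no overlap between neighbours in this order. The other 5 genes were at or below 1.46, and there Adora2b overlapped P2ry13, P2ry13 overlapped P2ry12, and P2ry14 overlapped Adora2a. In CM the order was P2ry6 at 133 ± 25.5 and Adora2b at 132 ± 16.2 (SD, n = 3), which overlapped, then P2ry2 at 37.3 ± 6.43, P2rx4 at 23.6 ± 2.0, and Adora2a at 15.5 ± 1.26 with Entpd1 at 13.7 ± 6.49, which also overlapped. P2rx7 followed at 6.54 ± 0.905, and P2ry14, P2ry12 and P2ry13 were between 0.203 and 0.401. In CM + Rux, Adora2b at 103 and P2ry6 at 102 overlapped at the top, and Adora2a at 25.2, P2ry2 at 22.8 and P2rx4 at 22.7 overlapped next. With IKK-16, P2ry6 was at 77.3 and Adora2b at 62.7, followed by P2rx4 at 27.5.

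**Figure D3:**
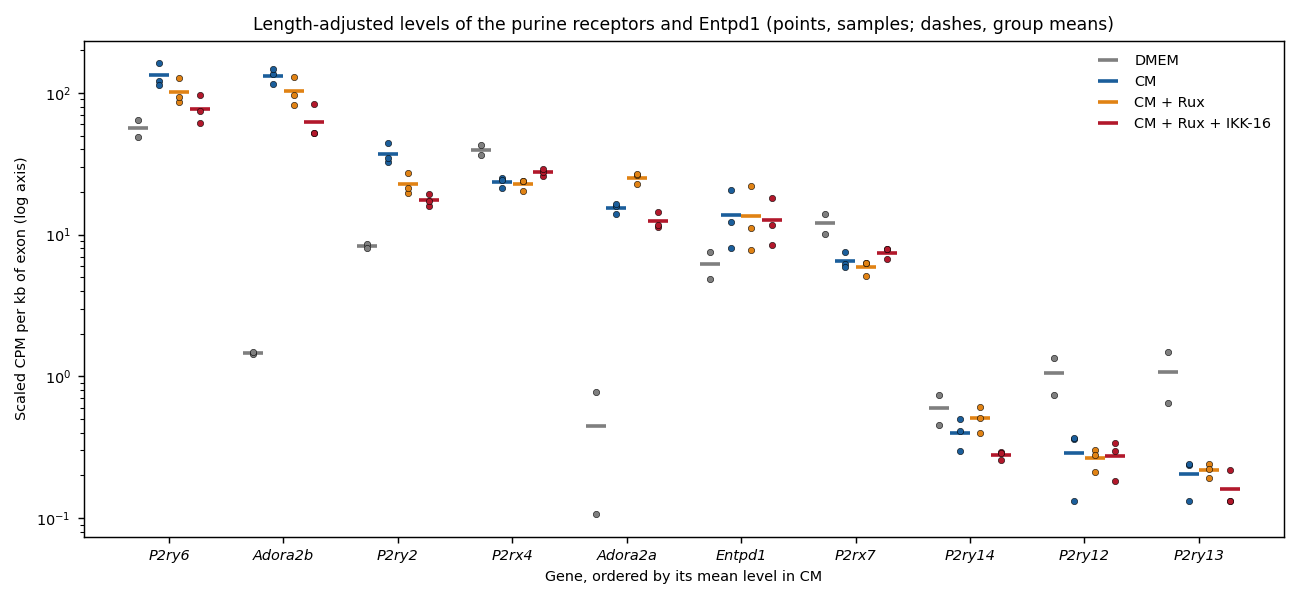
RLE-scaled CPM per kilobase of exon (log axis) of the 10 genes in DMEM, CM, CM + Rux and CM + Rux + IKK-16; points are samples and dashes are group means. Adora2b moves from a mean of 1.46 in DMEM to 132 in CM, where it overlaps P2ry6.

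P2ry2 was called lower in CM + Rux than in CM, and no other gene of the 10 was called. Of all genes tested, 3.33% were called, 1.2% higher and 2.13% lower. P2ry2 fell from 128, 175 and 136 CPM in CM to 77.6, 107 and 84.1 CPM in CM + Rux. All CM + Rux samples were below all CM samples, and remained above DMEM. The log2 fold change was -0.71 (SE 0.13, adjusted p = 0.0041). Adora2a went the other way, from 43.1, 48.7 and 50.5 CPM to 80.4, 69.5 and 82.0 CPM, without overlap. Its log2 fold change of 0.70 (SE 0.25) was not called in the model without pairing (adjusted p = 0.15). With the replicate number as a block, which pairs the samples of these groups, the same value was called (adjusted p = 0.02), as it was in a model of only these 2 groups (adjusted p = 0.013). The block made 2 of the 10 genes called in place of 1, and it also raised the number called over all genes, as given in the closing section. Adora2b had 179, 237 and 152 CPM in CM + Rux, with a log2 fold change of -0.36 (95% interval -0.73 to 0.00). P2ry6 had 247, 369 and 270 CPM, with a log2 fold change of -0.37 (-0.76 to 0.02). These intervals are from the model without pairing. In each numbered pair both genes were lower in CM + Rux, as CM had 251, 270 and 212 CPM of Adora2b and 351, 467 and 330 CPM of P2ry6. The ratio of Adora2b to Adora2a per kilobase was 3.09 to 5.67 in CM + Rux, below the 6.97 to 9.67 of CM, while both genes stayed far above DMEM. The log2 fold changes of P2rx4 (-0.05), P2rx7 (-0.15), P2ry12 (-0.18), P2ry13 (0.06), P2ry14 (0.32) and Entpd1 (-0.01) were not called. The interval for P2rx4 was narrow, at -0.27 to 0.16, whereas that for P2ry13 was -1.0 to 1.11, at 11 to 25 counts per CM + Rux sample. The median over the 10 genes was -0.10, beside 0.01 over all genes.

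Adding IKK-16 to CM + Rux lowered both adenosine receptor genes and P2ry14. These were 3 of the 10 genes, where 7.74% of all genes tested were called, 4.07% higher and 3.66% lower. Adora2a had 34.4, 35.8 and 43.9 CPM with both inhibitors, against 80.4, 69.5 and 82.0 CPM in CM + Rux. The groups were well apart, with a log2 fold change of -1.02 (SE 0.25, adjusted p = 0.014), and the levels with both inhibitors overlapped those of CM alone. Without the first IKK-16 replicate the value was -0.95 and was not called, and DESeq2 did not call it either (adjusted p = 0.072). Adora2b had 96.8, 155 and 95.5 CPM with both inhibitors. Replicate 2 was the highest and overlapped CM + Rux replicate 3 at 152 CPM. The log2 fold change was -0.71 (SE 0.19, adjusted p = 0.02), and the call was lost in a model of only these 2 groups (-0.70), without CM + Rux replicate 2 (-0.52), and without IKK-16 replicate 1 (-0.60) or 3 (-0.59). P2ry14 fell from 4.42, 6.73 and 5.59 CPM to 2.83, 3.21 and 3.17 CPM, with a log2 fold change of -0.86 (SE 0.26, adjusted p = 0.038). That call was lost without CM + Rux replicate 2 (-0.70) or 3 (-0.86) and without IKK-16 replicate 1 (-0.81), 2 (-0.90) or 3 (-0.89). With the block, all 3 were called at adjusted p between 0.00017 and 0.002.

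P2ry2 had 63.0, 75.7 and 67.8 CPM with both inhibitors, all below the lowest CM + Rux sample, and its log2 fold change of -0.38 was not called (adjusted p = 0.06). P2ry6 had 178, 277 and 216 CPM and a log2 fold change of -0.40 (adjusted p = 0.2). The P2X genes lay on the other side, at 183, 194 and 203 CPM for P2rx4 and 40.0, 46.9 and 46.9 CPM for P2rx7. Both were above every CM + Rux sample, with log2 fold changes of 0.27 (adjusted p = 0.12) and 0.34 (adjusted p = 0.1) that were not called. P2ry12 (0.03), P2ry13 (-0.43) and Entpd1 (-0.11) were not called either. The median of the 10 genes was -0.39, beside 0.00 over all genes.

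With both inhibitors against CM alone, P2ry2, Adora2b and P2ry6 were called lower, 3 of the 10 genes, where 12.7% of all genes tested were called, 6.6% higher and 6.13% lower. P2ry2 had a log2 fold change of -1.09 (SE 0.13, adjusted p = 5.6e-05) and Adora2b one of -1.08 (SE 0.19, adjusted p = 0.0012). For both genes all samples with both inhibitors were below all CM samples and above all DMEM samples. P2ry6 had -0.78 (SE 0.20, adjusted p = 0.013), and this call was lost without CM replicate 2 (-0.61) or IKK-16 replicate 1 (-0.64). P2ry14 had -0.55 without overlap between the groups, not called (adjusted p = 0.15), and with the block it was called at -0.52 (adjusted p = 0.033). Adora2a had -0.32 (95% interval -0.81 to 0.17), and the level fell in each of the 3 numbered pairs, from 43.1 to 34.4, from 48.7 to 35.8 and from 50.5 to 43.9 CPM. With the block its value was -0.33, not called (adjusted p = 0.16). The other values were 0.22 for P2rx4, 0.19 for P2rx7, -0.15 for P2ry12, -0.38 for P2ry13 and -0.11 for Entpd1, none called. This comparison, that of ruxolitinib alone and that of IKK-16 share samples, and their values are not independent.

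In the main edgeR model, ruxolitinib in DMEM called none of the 10 genes, where 0.97% of all genes tested were called. Adora2a had the lowest unadjusted p of the 10 in that model (0.026). It had 0.507, 0.468 and 0.841 CPM against 2.39 and 0.327 CPM, with a log2 fold change of -1.29 (SE 0.52, adjusted p = 0.78). This value rests on the DMEM samples. Without DMEM replicate 1 it was 0.86, and without DMEM replicate 2 it was -1.99 and called (adjusted p = 0.005). P2ry2 had 35.4, 33.0 and 37.2 CPM, against 33.5 and 31.8 CPM, and a log2 fold change of 0.11 (95% interval -0.17 to 0.39). The other values were 0.49 for P2ry12, 0.42 for Entpd1, 0.30 for P2ry13, 0.08 for P2rx7, 0.06 for P2rx4, 0.04 for P2ry6, 0.01 for P2ry14 and -0.04 for Adora2b. DESeq2 also called 0 of the 10 genes here.

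Whether the effect of ruxolitinib differed between CM and DMEM was tested as an interaction. In the main edgeR model, without pairing, none of the 10 genes was called. Of all genes tested, 0.412% were called, 0.234% higher and 0.178% lower. The lowest unadjusted p-values of the 10 in that model were 0.0008 for P2ry2 and 0.0038 for Adora2a. P2ry2 had a difference of -0.82 in log2 fold change (SE 0.19, adjusted p = 0.083), and with the block it was -0.82 and called (adjusted p = 0.012). DESeq2 called it as well (adjusted p = 0.0081). For Adora2a the difference was 1.99 (SE 0.57, adjusted p = 0.17), and with the block 2.06 (adjusted p = 0.044). It was -0.16 without DMEM replicate 1. The P2Y gene for UDP, P2ry6, had -0.41 (adjusted p = 0.84). The values of P2ry12 (-0.67), Entpd1 (-0.43), Adora2b (-0.32), P2ry13 (-0.25), P2rx7 (-0.23), P2rx4 (-0.11) and P2ry14 (0.31) were not called.

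The 2 CM + Rux samples labelled 2 h differed from the 3 labelled 4 h in 4 of the 10 genes, where 23.3% of all genes tested were called, 10.7% higher and 12.6% lower. All 4 were lower in the 4 h samples. P2ry12 had 2.84 and 4.38 CPM at 2 h and 0.539, 0.774 and 0.712 CPM at 4 h, a log2 fold change of -2.39 (SE 0.45, adjusted p = 0.001). P2ry13 had 1.27 and 2.80 CPM at 2 h and 0.485, 0.605 and 0.559 CPM at 4 h, a log2 fold change of -1.82 (SE 0.51, adjusted p = 0.012), and this call was lost without 2 h replicate 3 (-1.20). For both ADP receptor genes, the 2 h samples overlapped the range of DMEM and the 4 h samples did not. P2rx4 also overlapped DMEM at 2 h, with 247 and 263 CPM, and had 142, 169 and 168 CPM at 4 h (log2 fold change -0.68, SE 0.12, adjusted p = 0.00078). P2ry2 was at 181 and 185 CPM at 2 h, above every CM sample, and at 77.6, 107 and 84.1 CPM at 4 h (log2 fold change -1.04, SE 0.14, adjusted p = 7.7e-05). The adenosine receptor genes were high at both labels, with 47.8 and 62.7 CPM for Adora2a and 248 and 204 CPM for Adora2b at 2 h. Their log2 fold changes were 0.49 and -0.25 and were not called. P2rx7 had 38.2 and 43.6 CPM at 2 h, within the range of CM, so P2rx7 was low at 2 h where P2rx4 was not, although the difference between them was not tested. P2ry6 had a log2 fold change of -0.53 (adjusted p = 0.07), Entpd1 -0.67, with 129 and 114 CPM at 2 h, and P2ry14 0.21. The median of the 10 genes was -0.60, beside 0.03 over all genes. With 2 samples at 2 h, without a sample numbered 1, the time label and sample number are not fully balanced.

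A list of 35 further genes of the pathway, in 5 classes, was read beside the 10, and 21 of them passed the filter on low counts. In CM against DMEM, 5 passed the call upward and 8 downward, where 20.9% of all genes tested were called higher and 24.1% lower. The median log2 fold change of the 21 was -0.15, beside 0.00 over all genes. The remaining adenosine receptor gene tested was Adora3, which couples to an inhibitory G protein and had 0.532 and 0.654 CPM in DMEM and 8.89, 10.5 and 7.93 CPM in CM (log2 fold change 3.95, SE 0.39, adjusted p = 1.3e-06). All 3 adenosine receptor genes tested were therefore higher in CM. The remaining P2Y gene tested, P2ry1, encodes another ADP receptor and went from 22.8 and 28.2 CPM to 1.11, 1.34 and 2.56 CPM (log2 fold change -3.92, SE 0.29, adjusted p = 9.6e-08). With it, all 3 ADP receptor genes were lower. P2rx6, with a mean of 1.01 CPM in DMEM, was called lower (-1.18).

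Among the enzymes that hydrolyse nucleotides, 9 of 15 were tested, and 4 were called higher and 3 lower in CM. Nt5e encodes CD73, which turns AMP into adenosine, and had 0.207 and 0.245 CPM in DMEM and 4.56, 6.06 and 4.80 CPM in CM (log2 fold change 4.51, SE 0.54, adjusted p = 8.2e-06). Cd38, which encodes an NAD glycohydrolase, had 0.236 and 0.0409 CPM in DMEM, at 8 and 1 counts, and 43.5, 37.8 and 52.3 CPM in CM (log2 fold change 8.14, SE 0.44, adjusted p = 5.9e-09). Its relative Bst1 rose by 1.5 on the log2 scale (SE 0.12). Acpp, an acid phosphatase that can act on AMP, had no counts in either DMEM sample and 5, 9 and 5 counts in the CM samples, so no fold is given. Entpd5 (-0.65), Entpd6 (-0.77) and Enpp1 (-0.54), which also encode nucleotide-hydrolysing enzymes, were lower. Of 9 genes tested for ATP release and adenosine handling, 3 were lower and 0 higher, where 24.1% of all genes were called lower and 20.9% higher. These were Panx1, a channel for ATP release (-1.25), Ada, adenosine deaminase (-1.09), and Adk, adenosine kinase (-0.83). Adenosine deaminase and adenosine kinase are enzymes that remove adenosine. In the 2 h samples Ada had 19.1 and 16.5 CPM, against 13.6 and 18.4 CPM in DMEM, and Adk had 23.5 and 23.5 CPM, against 23.0 and 22.6 CPM.

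**Figure D4:**
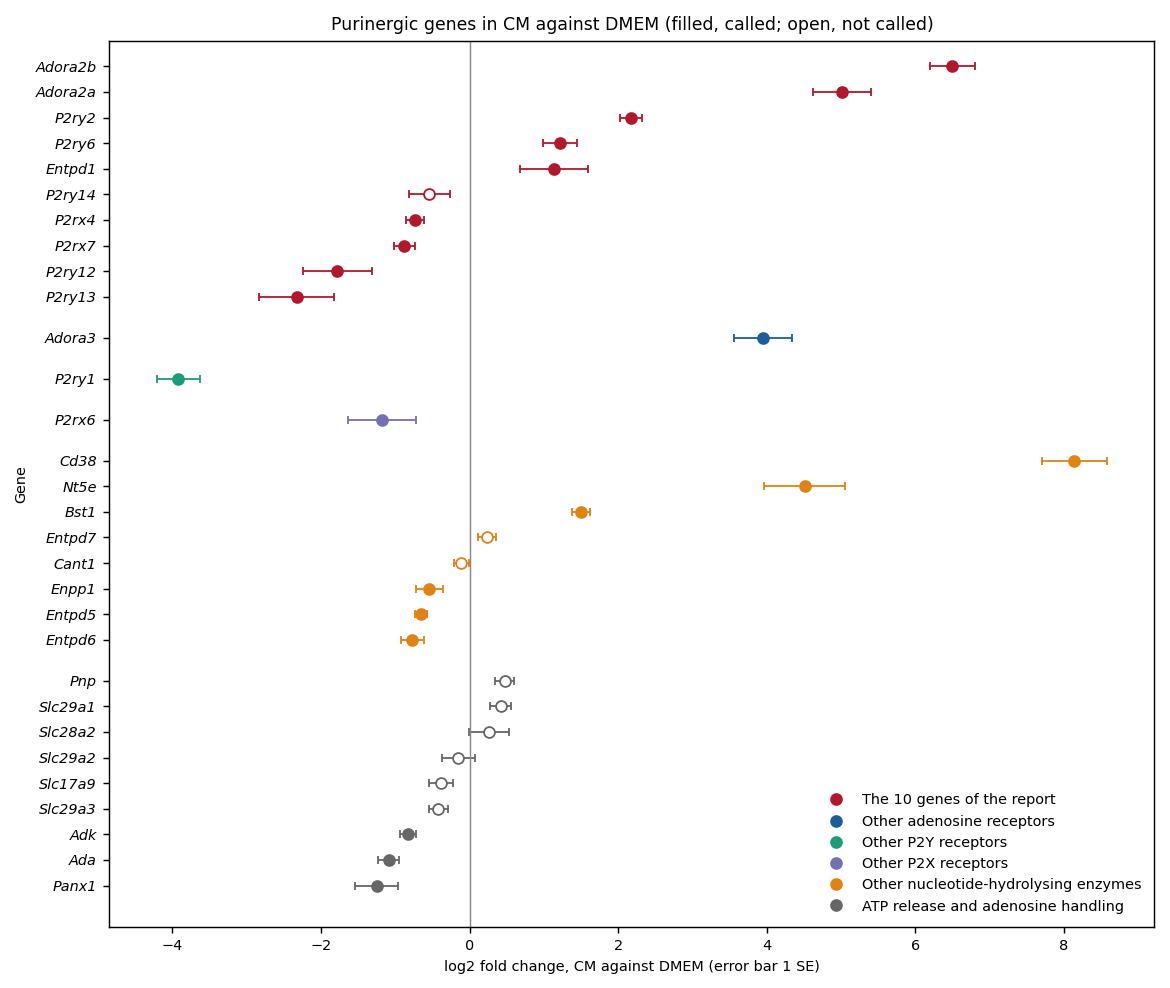
Log2 fold change in CM against DMEM (horizontal axis, error bar 1 SE) of the 10 genes and of the tested pathway genes by class, filled where called; Acpp, at 0 counts in DMEM, is left out. Cd38 at 8.14 and Adora2b at 6.50 lie farthest to the right, and P2ry1 at -3.92 farthest to the left.

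In CM + Rux against CM, 2 of the 21 pathway genes were called lower and 1 higher, where 2.13% of all genes were called lower and 1.2% higher. Adora3 fell to 1.16, 2.08 and 2.54 CPM (log2 fold change -2.27, SE 0.29, adjusted p = 0.00037), whereas Adora2a had its highest levels in this group. Slc28a2, a nucleoside transporter gene, fell by 1.20 on the log2 scale. Acpp had 44, 22 and 23 counts and was called higher (adjusted p = 0.041). It passed the filter on low counts only through CM + Rux replicates 1 and 3 (1.19 and 1.17 CPM). Its calls here and against the 2 h samples are therefore not independent of that filter. Adding IKK-16 to CM + Rux was followed by 3 higher and 2 lower calls, where 4.07% of all genes were called higher and 3.66% lower. Cd38 fell from 41.6, 42.2 and 56.3 CPM to 9.55, 12.2 and 18.1 CPM (log2 fold change -1.81, SE 0.21, adjusted p = 0.00019), and Bst1 fell by 0.72. Nt5e was higher, at 7.88, 11.6 and 7.63 CPM against 2.94, 5.66 and 4.42 CPM (log2 fold change 1.05, SE 0.31, adjusted p = 0.037), the opposite direction to Adora2a and Adora2b in this comparison. The nucleoside transporter gene Slc29a3 (0.82) and Entpd6 (0.50) were also higher. With both inhibitors against CM, where 6.6% of all genes were called higher and 6.13% lower, 2 were higher, P2ry1 (1.20) and Slc29a3 (0.86), and 5 lower, Adora3 (-2.92), Cd38 (-1.75), Bst1 (-1.11), Slc28a2 (-1.0) and Pnp (-0.78), of which Pnp has a near-identical copy and is uncertain. In DMEM + Rux against DMEM, Pnp alone was called (-0.59), where 0.97% of all genes were called. The interaction called 0 of the 21. Between the 2 h and 4 h labels, 5 were higher at 4 h and 4 lower, where 10.7% of all genes were called higher and 12.6% lower. Those higher at 4 h were Cd38 (5.6 and 5.43 CPM at 2 h), Nt5e (0.441 and 0.350 CPM at 2 h), Adora3 (0.441 and 0.234 CPM at 2 h), Bst1 (log2 fold change 0.97) and Acpp, with 2 counts in each 2 h sample. Those lower at 4 h were P2ry1 (-1.55), Enpp1 (-1.36), Ada (-1.10) and Adk (-0.71). Adora3 and Nt5e were thus below 0.5 CPM in the 2 h samples, in which Adora2a and Adora2b were high.

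Likeness of pattern was described by the Pearson correlation over the 6 group means of log2(CPM + 0.5), which share libraries and scaling. Adora2a and Adora2b had r = 0.99 with each other, P2ry2 and P2ry6 had 0.99, P2ry12 and P2ry13 had 0.96, and P2rx4 and P2rx7 had 0.83. P2rx7 ran opposite to the adenosine receptor genes, at -0.99 with Adora2a and -0.98 with Adora2b. Of all genes tested, those most like Adora2a were Ccl22 (1.0) and Hspa13 (0.999), and those most like Adora2b were Kcna3 (1.0) and Ppfibp1 (0.999). The nearest were Itm2c (0.999) and Osbp2 (0.993) for P2ry2, Tnip2 (0.999) and Crlf2 (0.998) for P2ry6, Adcy3 and Fcgrt (both 0.998) for P2ry12, and Enc1 (0.999) and Cox7a2l (0.998) for P2ry13. They were Calcrl (0.997) and Slu7 (0.986) for P2ry14, Pianp (0.999) and Apba1 (0.998) for P2rx4, D6Wsu163e (1.0) and Vps33a (0.999) for P2rx7, and Trappc6a (0.994) and Sdf4 (0.990) for Entpd1. With 6 points per gene, values this close to 1 describe a like shape of the larger differences between group means and no more. They do not fix the order of the groups. The mean of Adora2a was highest in CM + Rux (77.3 CPM), and that of Adora2b in CM (244 CPM).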

How the data were processed

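The labels and the study's methods describe poly(A)-selected, reverse-stranded libraries of 16 BMDM samples in 6 groups. The authors trimmed reads with Trimmomatic 0.33, aligned them to GRCm38 with HISAT2 2.1.0 and counted fragments per gene with featureCounts 1.6.2 on the Ensembl 100 annotation. The deposited values are whole-number counts of 55487 genes, neither scaled nor filtered. Symbols came from GENCODE M21, an earlier release, which matched 55141 identifiers. The 346 others hold at most 0.0459% of a sample's counts, and the bounds of all 10 genes were the same in both releases. No 2 replicates of the same group were copies of each other.

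Scaling was by relative log expression (RLE). Genes with over 1 CPM in 2 or more samples entered 1 model of 6 groups and 7 comparisons, tested by quasi-likelihood in edgeR 4.0.16 (limma 3.58.1, R 4.3.3). A call needs an adjusted p under 0.05 and a log2 fold change beyond 0.5. The scripts were tested on simulated data. Same-numbered samples of CM, CM + Rux and CM + Rux + IKK-16 deviated together (correlations of 0.53 to 0.775 over the 2000 most variable genes, 3 pairs per group pair), so the replicate block is given where it changes a call. The pairs with DMEM + Rux had 0.201 to 0.417. Alternatives were TMM scaling, no filter, the filterByExpr filter, the block, DESeq2 1.42.0, no fold threshold, a model of only the groups compared, and each sample left out in turn. Tables and plots used Python 3.11.15, pandas 2.3.3, numpy 2.4.6 and matplotlib 3.10.9. All 10 genes are named in every comparison, and pathway genes where called. The genes, lists and tests were chosen with earlier results of these data known.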

Additional observations from a re-analysis of the deposited data

How the results depend on the processing

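Over the alternatives, the 20 called pairs of gene and comparison gave 227 values, of which 208 kept direction and call, 19 kept direction and lost the call, and 0 reversed. Of the 50 uncalled pairs, 21 changed sign under some alternative and 18 of 626 values became called. In CM + Rux against CM the number of the 10 genes called was 1, and 2 without the filter, with the replicate block, and in a model of only the groups compared. In the interaction it was 0, and 2 without the filter, 2 with the replicate block, 1 with DESeq2, and 0 to 1 with a sample left out. With a sample left out it was 0 to 3 in CM + Rux + IKK-16 against CM + Rux, from 3, and 0 to 1 in DMEM + Rux against DMEM, from 0. With all samples, 7.74% and 0.97% of all genes tested were called in the last 2 comparisons, respectively. Shares with a sample left out are not given. The cause of these changes was not tested. Over all genes, the calls of CM + Rux against CM were 412, 685 without the filter and 745 with the block, and those of the interaction 51, 349, 444 and, with DESeq2, 237. In CM against DMEM, where DMEM has 2 pairs, the block called P2ry14 (-0.64, adjusted p = 0.0073), and the block changed no other call than those given. P2ry12 and P2ry13 rested on 6 to 32 counts in CM, CM + Rux and CM + Rux + IKK-16 samples, which limits what could be detected.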
